A study of Aspergillus luchuensis with 9 samples.

Results

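The polyketide synthase gene nscA (AKAW2_80648A) was examined together with AKAW2_80649S, nscC (AKAW2_80650A), AKAW2_80651S and nscR (AKAW2_80652A), which follow it on chromosome 8 in the white koji mould Aspergillus luchuensis mut. kawachii, a filamentous fungus of shochu making. These 5 of the 12941 genes in the table are consecutive, and they were chosen because nscA and its neighbours had been seen to be higher in ΔhepA than in the control. Poly(A)-enriched RNA-seq libraries had been made from a control strain, a strain labelled hepA and a strain labelled laeA, all in the mut. kawachii background, with 3 libraries each; the series names the latter strains as ΔhepA and ΔlaeA deletion strains. The labels give no agent, culture time or medium, and they do not say whether replicates were separate cultures or whether each deletion strain was 1 clone, so the spread behind each p-value is that between libraries and may be technical. Expression was given as FPKM, which divides fragments by the length of the transcript and by the mapped total of the library.

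Filamentous fungi keep the genes of a secondary metabolite side by side, and such clusters are often silent in culture. A non-reducing polyketide synthase builds an aromatic carbon skeleton, tailoring enzymes such as monooxygenases modify it, and a zinc cluster transcription factor encoded in the cluster often switches it on. The nsc genes are named after the neosartoricin cluster of Aspergillus fumigatus and its relatives, where NscA is the non-reducing polyketide synthase, NscC a flavin-dependent monooxygenase and NscR the cluster's transcription factor. HepA is an Aspergillus counterpart of the heterochromatin protein HP1, which binds methylated histone H3, and LaeA is a methyltransferase-like nuclear protein that acts with velvet proteins on secondary metabolism; both were described in Aspergillus nidulans as regulators of such clusters. The reference gives AKAW2_80649S and AKAW2_80651S no name, so no role is given to them here.

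The 5 genes lie between 1801036 and 1813786 on chromosome 8, a span of 12751 bases, in the files' coordinates, which equal those of the RefSeq assembly AkawachiiIFO4308_assembly01. Their strands alternate. nscA (1801036 to 1806429, minus strand) and AKAW2_80649S (1807057 to 1808058, plus strand) start head to head with 627 bases between them. nscC (1808460 to 1809704, minus strand) and AKAW2_80651S (1810156 to 1810896, plus strand) also start head to head, 451 bases apart. AKAW2_80649S and nscC end tail to tail 401 bases apart, and AKAW2_80651S and nscR (1811288 to 1813786, minus strand) end tail to tail 391 bases apart. The first 4 genes are thus a run of 2 divergent pairs, with nscR at the end of the run. The region is well inside the chromosome, whose last annotated gene ends at 4046095.

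The libraries differed in depth. Depths relative to control replicate 3, read from the steps between low FPKM values, were 0.841 to 1 in the controls, 0.9 to 1.03 in ΔhepA, and 0.973, 0.66 and 0.52 in ΔlaeA replicates 1 to 3, so low values are least precise in the last 2. On the first principal component ΔhepA replicate 2 and ΔlaeA replicates 2 and 3 lay apart (28.8 to 72.8, against -46.4 to -9.8 in the other 6), and their mitochondrial share of the FPKM sum was 2.85% to 7%, against 1.09% to 1.66%. The reference lists no gene under the symbols hepA or laeA, so the deleted genes were not read out. Of 5 conidiation genes that could be matched (brlA, abaA, wetA, fluG and CON10), the summed level was 404 to 452 FPKM in the controls, 409 to 703 in ΔhepA and 592 to 811 in ΔlaeA. Most of that sum was fluG (306 to 382, 311 to 647 and 408 to 700 FPKM), and the 5 genes did not move as one: in ΔlaeA every library was higher than every control for CON10 (log2 difference 1.68), brlA and fluG, but lower for abaA (4.28 to 7.62 against 12.35 to 35.29 FPKM, log2 difference -1.84), while wetA overlapped (-0.48). Over the 10009 genes tested, the median log2 difference from the control was -0.15 in ΔhepA and -0.21 in ΔlaeA, and 0.01 and -0.025 after median-ratio scaling.

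nscA was low in the control and high in ΔhepA. In control replicates 1 to 3 it stood at 1.79, 1.14 and 5.44 FPKM, and in ΔhepA replicates 1 to 3 at 17.33, 45.12 and 65.03 FPKM. The lowest ΔhepA library was above the highest control library. The means were 2.79 ± 2.32 and 42.5 ± 24 FPKM (SD, n = 3), a ratio of 15.2 and a log2 difference of 3.50 ± 0.59 (SE) on the log2(FPKM + 1) scale used for all differences here, which understates changes of low genes. In ranks within a library, nscA went from the 27.5th to 41st percentile of all genes in the controls to the 57.7th to 79.4th in ΔhepA. In bulk RNA, more cells that express a gene and more RNA per cell cannot be told apart.

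AKAW2_80649S, which shares its upstream region with nscA, was the most abundant of the first 4 genes. Its control libraries gave 12.55, 9.46 and 55.95 FPKM, and its ΔhepA libraries 183.58, 533.35 and 882.54 FPKM. The ranges did not overlap, and the ratio of the means was 20.5 (log2 difference 4.47 ± 0.79 SE). In ΔhepA it reached the 90.6th to 97.8th percentile of all genes, against the 48.5th to 76.8th in the controls. FPKM are per length, so these levels can be set beside those of nscA; the sources used here do not give the length used for the scaling.

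nscC, the monooxygenase gene, gave 5.41, 3.49 and 16.89 FPKM in control replicates 1 to 3, and 44.53, 213.62 and 238.27 FPKM in ΔhepA. Every ΔhepA library was above every control library (ratio of means 19.2, log2 difference 4.05 ± 0.92 SE). AKAW2_80651S, its divergent partner, gave 4.55, 3.7 and 23.97 FPKM in control replicates 1 to 3, and 49.89, 197.54 and 239.82 FPKM in ΔhepA. Its ranges did not overlap either (ratio of means 15.1, log2 difference 3.96 ± 0.80 SE).

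nscR, the transcription factor gene, did not follow the others. Its control libraries gave 77.24, 28.81 and 33.79 FPKM, and its ΔhepA libraries 60.17, 56.56 and 49.14 FPKM. The ΔhepA values lay inside the control range, and the log2 difference was 0.37 ± 0.44 (SE). In the control, nscR (46.6 ± 26.6 FPKM, SD, n = 3) was the most abundant of the 5 genes by mean, and in each control library but replicate 3, where AKAW2_80649S was higher, it was also the highest.

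The ΔhepA values are a description, because this comparison chose the genes. In 4 of the 5 genes every ΔhepA library exceeded every control library, as it did in 5.48% of the 10009 genes tested. By size of the log2 difference AKAW2_80649S, nscC, AKAW2_80651S and nscA were 1st, 2nd, 3rd and 5th from the top among all genes tested, and nscR was 1471st. All 5 genes passed the filter of at least 1 FPKM in at least 3 libraries, nscA with 3 of 3 control libraries above 1. Without ΔhepA replicate 2, the ΔhepA library that lay apart, the log2 differences were 3.37 for nscA, 4.33 for AKAW2_80649S, 3.7 for nscC, 3.67 for AKAW2_80651S and 0.36 for nscR. With quantile normalization they were 3.64, 4.68, 4.24, 4.13 and 0.56 in the same order.

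**Figure D1:**
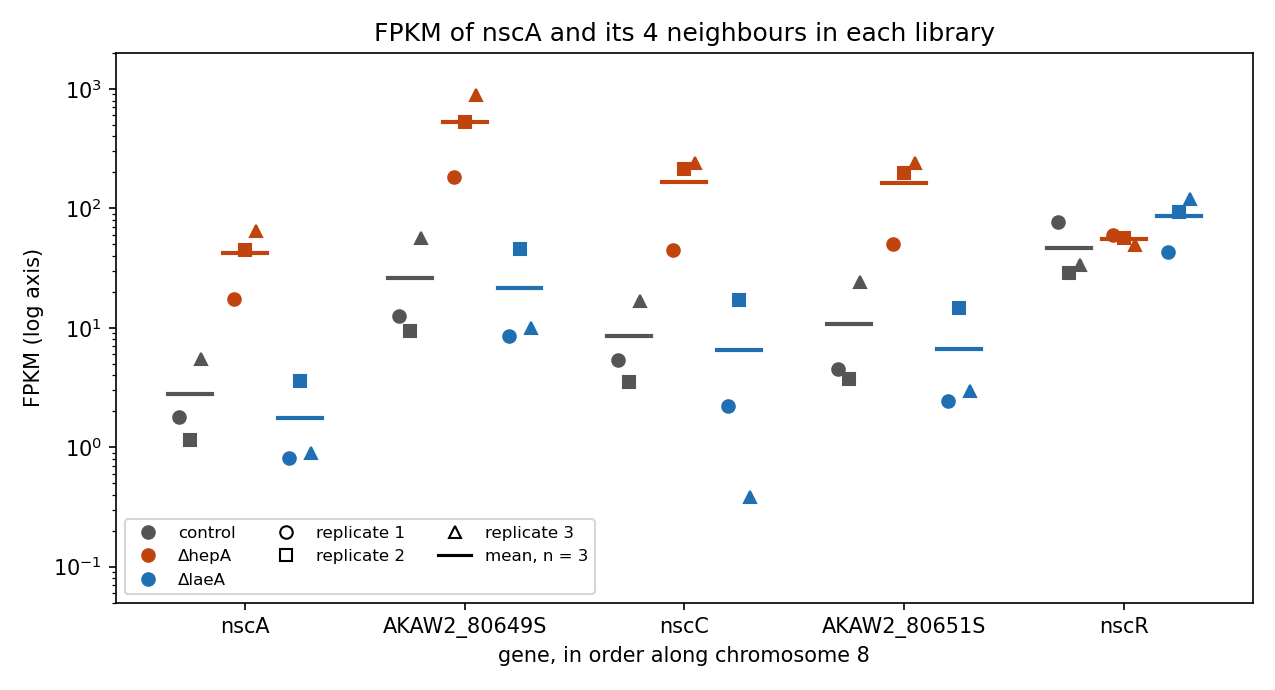
FPKM (log axis) of the 5 genes in order along chromosome 8, with 1 symbol per library (shape gives the replicate, colour the strain) and a line at the mean of 3. For the first 4 genes all ΔhepA symbols lie above all control symbols, while the control and ΔlaeA symbols overlap; for nscR all 3 strains overlap.

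In ΔlaeA the first 4 genes were in the range of the control or below it, but for 1 value of nscC just above it. nscA stood at 0.82, 3.6 and 0.9 FPKM in ΔlaeA replicates 1 to 3. AKAW2_80649S stood at 8.49, 45.74 and 10.04 FPKM. In both genes replicate 2 was the highest library and lay inside the control range, while at least 1 of the others was below the lowest control. nscC stood at 2.21, 16.98 and 0.38 FPKM, so its highest ΔlaeA value was just above the highest control value and its lowest was the lowest value of the gene in any library. AKAW2_80651S stood at 2.42, 14.64 and 2.97 FPKM.

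None of these genes passed the test in ΔlaeA against the control. The ΔlaeA libraries had no part in choosing the genes, but the control libraries had. nscA had a log2 difference of -0.42 (95% confidence interval -1.72 to 0.87, limma adjusted p = 0.688). For AKAW2_80649S the difference was -0.24 (-1.98 to 1.5, limma adjusted p = 0.881), for nscC -0.90 (-2.93 to 1.14, limma adjusted p = 0.576) and for AKAW2_80651S -0.54 (-2.31 to 1.23, limma adjusted p = 0.711). Each interval holds both falls and rises, so it does not show that the strain equals the control. Without control replicate 3, the highest control library for all 4, the difference was 0.042 for nscA, 0.51 for AKAW2_80649S, -0.32 for nscC and 0.22 for AKAW2_80651S.

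nscR stood at 43.39, 93.95 and 120.93 FPKM in ΔlaeA, and both libraries that lay apart were above all controls. The mean was 86.1 ± 39.4 FPKM (SD, n = 3) against 46.6 ± 26.6 in the control (log2 difference 0.89, 95% confidence interval -0.079 to 1.85, limma adjusted p = 0.259). Without ΔlaeA replicate 1 the difference was 1.31 (limma adjusted p = 0.0501). Without the 3 libraries that lay apart it was 0.036, but ΔlaeA then rests on replicate 1 alone. With each library left out the limma adjusted p ran from 0.0501 to 0.542. The mitochondrial share in the 2 highest libraries was 3.04% and 7%; its part in the difference was not tested. In all, 0 of the 5 genes were called in ΔlaeA, where limma called 1.09% of the genes tested, and 0 of the 5 had an unadjusted p under 0.05, as 21.6% of the genes tested did.

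Set side by side, the order of the strains by mean was ΔhepA, control, ΔlaeA for each of the first 4 genes, and of the neighbours in that order only ΔhepA and the control did not overlap. The ΔhepA mean was 24 times the ΔlaeA mean for nscA, 24.9 times for AKAW2_80649S, 25.4 times for nscC and 24.3 times for AKAW2_80651S, and every ΔlaeA library was below every ΔhepA library in these 4 genes (4.79% of the genes tested). For nscR the order by mean was ΔlaeA, ΔhepA, control, and all neighbours in it overlapped. The 2 deletion strains share their controls, and the ΔhepA libraries chose the genes, so these ratios are given without a test.

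The first 4 genes also moved together from library to library within a strain. Control replicate 3 was the highest control library and replicate 2 the lowest for all 4. ΔhepA replicate 3 was the highest and replicate 1 the lowest of their strain for all 4, with the highest 3.75 times the lowest for nscA, 4.81 times for AKAW2_80649S and AKAW2_80651S, and 5.35 times for nscC. ΔlaeA replicate 2 was the highest of its strain for all 4. For nscR the highest libraries were control replicate 1, ΔhepA replicate 1 and ΔlaeA replicate 3, none of them the highest for the other genes. Among the conidiation genes, ΔhepA replicate 1 was the lowest of its strain for fluG (311, 647 and 583 FPKM in replicates 1 to 3) and the highest for CON10, brlA, abaA and wetA; their part in the spread of the 4 genes was not tested.

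Relative to nscA, the levels of AKAW2_80649S and AKAW2_80651S ranged 1.94-fold and 1.73-fold, while nscA itself ranged 79.3-fold, from 0.82 to 65.03 FPKM. AKAW2_80649S was 7.01 to 10.3 times nscA in FPKM in the controls, 10.6 to 13.6 times in ΔhepA and 10.4 to 12.7 times in ΔlaeA. The ranges of the controls and the deletion strains nearly touched, at 10.28 in control replicate 3 and 10.35 in ΔlaeA replicate 1. In that ΔlaeA library nscA was at 0.82 FPKM, so the ratio is imprecise. How often other genes separate in this way was not counted. AKAW2_80651S was 2.54 to 4.41 times nscA over the 9 libraries. The ratio of nscC to nscA was 3.02 to 3.10 in the controls and 2.57 to 4.73 in ΔhepA. In ΔlaeA it was 2.7, 4.72 and 0.422, and the last value comes from the shallowest library, with nscC at 0.38 FPKM. nscR was 6.21 to 43.2 times nscA in the controls and 0.756 to 3.47 times nscA in ΔhepA.

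**Figure D2:**
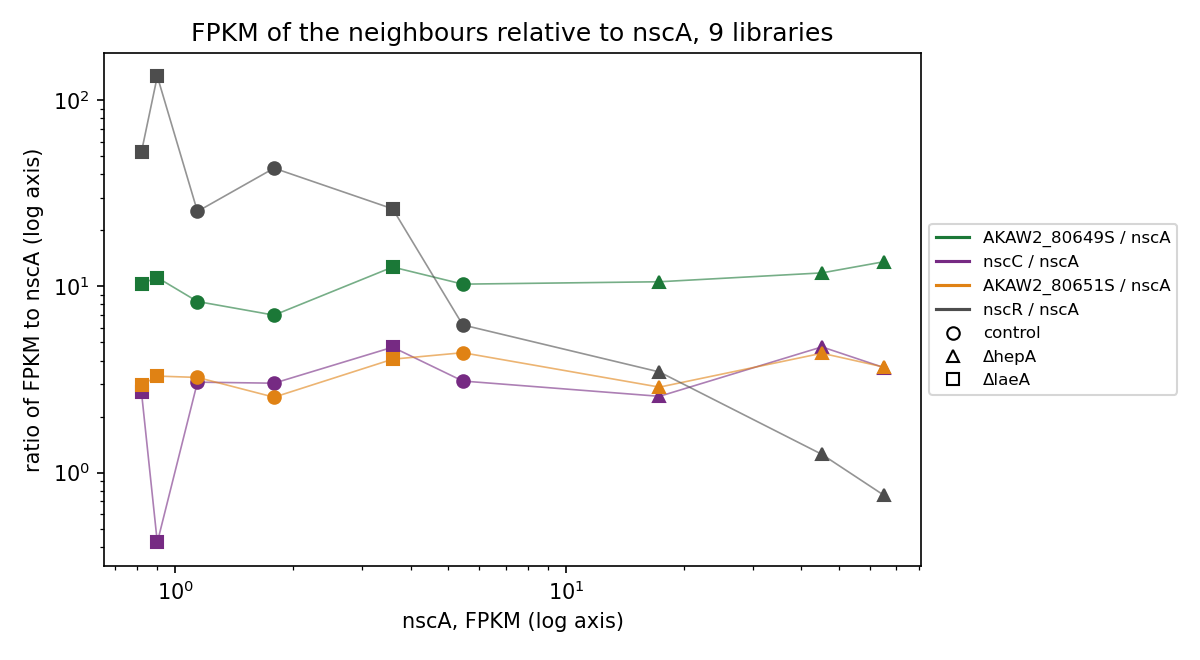
Ratio of the FPKM of each neighbour to that of nscA (log axis) against the FPKM of nscA (log axis) in the 9 libraries; symbol shape gives the strain and lines join libraries in order of nscA. The ratios of AKAW2_80649S, AKAW2_80651S and, but for 1 ΔlaeA library at 0.422, nscC vary far less than nscA. AKAW2_80649S lies at 7.01 to 10.28 in the controls, and its lowest value in the deletion strains is 10.35, so the ranges nearly touch. nscR falls from as high as 134 to 0.756. nscA is part of both axes, so a gene that does not follow nscA must fall in this plot.

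As a description over 9 libraries that share 3 strains, the Pearson correlation of log2(FPKM + 1) with nscA was 0.995 for AKAW2_80649S, 0.993 for AKAW2_80651S and 0.98 for nscC. These were the 3 highest among the 10008 other genes tested. The genes were chosen for being higher in ΔhepA, which raises this correlation, so the rank is not separate support. After each strain's mean was subtracted the 3 correlations were 0.988, 0.986 and 0.920, so the likeness was not only that of the strain means. No rank and no background over all genes was taken after subtraction. AKAW2_80653S, the gene next to nscR and listed at 0 in most libraries, had 0.69 with nscA after it. nscR had -0.11 before subtraction, where it ranked 5635th, and -0.019 after.

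Outside the region, the genes most like nscA among those with a strain mean of at least 5 FPKM had correlations of 0.856 to 0.921. They were AKAW2_70985S (chromosome 7), AKAW2_50882S and AKAW2_50320S (both chromosome 5), AKAW2_61025A (chromosome 6), AKAW2_30531A (chromosome 3), AKAW2_20261S and AKAW2_21600A (both chromosome 2) and AKAW2_11894S (chromosome 1), none with a symbol in the reference. AKAW2_70985S was measured at 2.5 to 3.84 FPKM in control libraries, 13.07 to 14.49 in ΔhepA and 2.73 to 3.56 in ΔlaeA. It was higher in ΔhepA with little spread between libraries and its ΔhepA replicate 1 was not below the other 2, as it was for nscA. AKAW2_50882S shared that order, with 6.83, 11.38 and 15.53 FPKM in ΔhepA replicates 1 to 3 and 3.78 to 4.51 in the controls. AKAW2_21600A, a gene of 342 bases, was 4th from the top by ΔhepA difference (3.52), but was listed at 0 in control replicates 1 and 2 and in all 3 ΔlaeA libraries, with 19.97 FPKM in control replicate 3 and 14.58 to 72.51 in ΔhepA. No 2 of these 8 genes are neighbours of the 5, and each lies on another chromosome.

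The genes on either side show an end of the difference only on the nscR side. Before nscA only AKAW2_80645A and AKAW2_80647S passed the filter. Both had positive ΔhepA differences (0.97 and 2.26), so no end was seen on that side. Of the 10 genes before nscA and the 10 after nscR, 7 passed the filter, 4 were listed at 0 in every library, and 3 of the 20 are tRNA genes. None of the 7 was called in ΔhepA (lowest limma adjusted p = 0.427; 2 of 7 had an unadjusted p under 0.05, as did 10.4% of all genes tested) or in ΔlaeA (lowest limma adjusted p = 0.255; 0 with an unadjusted p under 0.05), where limma called 0.32% and 1.09% of all genes tested. Their median log2 difference was 0.30 in ΔhepA and 0.06 in ΔlaeA. The raised genes were chosen on the ΔhepA comparison, so their own calls there are not used. The calls thus do not separate the flanking genes from the raised ones.

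AKAW2_80647S (1798483 to 1800207, plus strand), the gene beside nscA on its other side, stood at 20.41, 2.43 and 9.82 FPKM in the controls, 22.44, 18.11 and 194.34 in ΔhepA and 1.62, 8.89 and 11 in ΔlaeA. ΔhepA replicate 3 was far above the rest, replicate 1 just above the highest control and replicate 2 inside the control range. Its log2 difference in ΔhepA was 2.26 (limma adjusted p = 0.427) and 1.19 without ΔhepA replicate 3 (0.802); over all alternatives the adjusted p ran from 0.35 to 0.802. The correlation of AKAW2_80647S with nscA over the 9 libraries was 0.78, and 0.52 after each strain's mean was subtracted. AKAW2_80645A, further out, was at 3.16 to 5.81 FPKM in ΔhepA against 1.13 to 2.14 in control libraries (log2 difference 0.97, adjusted p = 0.427). On the far side of nscR, AKAW2_80653S was listed at 0 in 7 libraries, and AKAW2_80654S, an abundant gene of 860 to 1905 FPKM, had log2 differences of 0.38 in ΔhepA and 0.26 in ΔlaeA (adjusted p = 0.707 and 0.634). The other 4 tested genes beyond it had ΔhepA differences of -0.38 to 0.30.

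**Figure D3:**
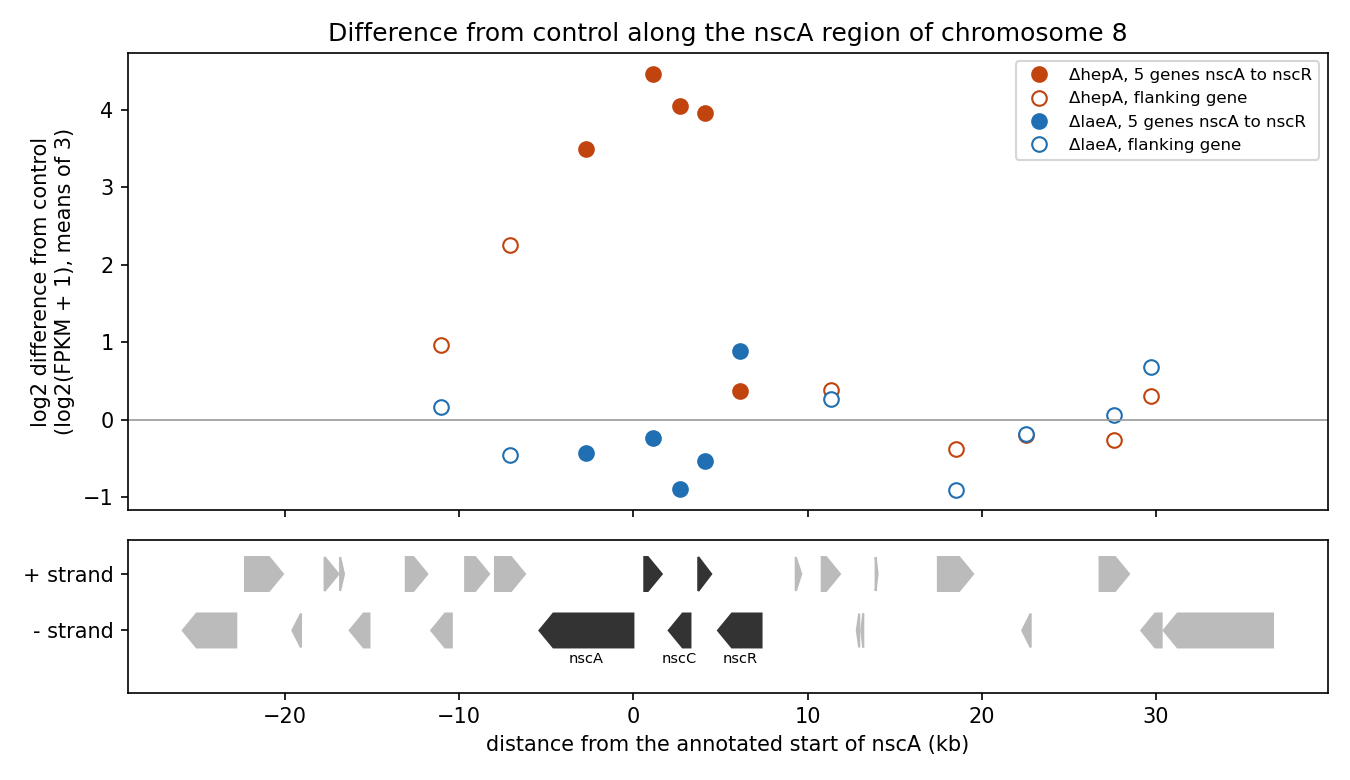
Log2 difference from the control (log2(FPKM + 1), means of 3 libraries) of the tested genes against distance in kb from the annotated start of nscA, with filled points for the 5 genes and open points for flanking genes; arrows below give every annotated gene with its strand. The ΔhepA points of nscA, AKAW2_80649S, nscC and AKAW2_80651S lie between 3.50 and 4.47, nscR is at 0.37, and the tested genes beyond nscR lie between -0.38 and 0.38. On the other side, before nscA, AKAW2_80647S is at 2.26 and AKAW2_80645A at 0.97 in ΔhepA.

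No other gene named after secondary metabolism rose as much in ΔhepA, but this was fixed in advance. The 4 raised genes were chosen on this comparison and ranked 1st, 2nd, 3rd and 5th of all genes tested. The gene ranked 4th, AKAW2_21600A, has no symbol. The list held 23 symbols beside the 5 genes, chosen by name patterns with earlier results of these data known, and 17 passed the filter. In it FUM1 and ARP2 are also the names of yeast genes for fumarase and an actin-related protein, so their place rests on the symbol alone. In ΔhepA 0 of 17 were called by limma (lowest adjusted p = 0.177; 3 had an unadjusted p under 0.05), where 0.32% of all genes tested were called and 10.4% had such a p. The raised genes were chosen on the ΔhepA comparison, so their own calls there are not set beside these. In the list 11 were higher and 6 lower, against 37.3% of all genes higher, and the median log2 difference was 0.18, against -0.15 over all genes tested. In ΔlaeA 0 of 17 were called (lowest adjusted p = 0.0587; 5 with an unadjusted p under 0.05), where 1.09% of all genes were called and 21.6% had such a p. In the list 9 were higher and 8 lower, against 37.3% of all genes higher, and the median was 0.01, against -0.21.

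nscE, the one other gene with an nsc symbol, lies on the same chromosome at 621651 to 622613, apart from the 5. Its level was 0 to 1.15 FPKM in control libraries, 0 to 0.79 in ΔhepA and 0 to 1.23 in ΔlaeA, and did not pass the filter. The polyketide synthase gene pksP, which makes the precursor of conidial melanin in Aspergillus fumigatus, was at or below 0.76 FPKM in every library. PKS5 was at 2.75 to 5.49 FPKM in the controls, 4.74 to 5.54 in ΔhepA and 3.62 to 21.31 in ΔlaeA (log2 differences 0.34 and 1.19). fma-PKS, named after the fumagillin polyketide synthase, was at 2.24 to 2.9 FPKM in ΔhepA and 1.54 to 2.37 in control libraries (0.3). In ΔlaeA fma-PKS was at 2.74 to 7.85 FPKM (log2 difference 0.79, limma adjusted p = 0.255).

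The largest ΔhepA differences in the list were those of gliI, FSL5 and sidI. gliI, named after a gliotoxin cluster gene, was at 0.56 to 1.73 FPKM in ΔhepA and 3.45 to 8.43 in control libraries (log2 difference -1.64, limma adjusted p = 0.177). FSL5, named after a fusarielin cluster gene, was at 1.83 to 13.68 FPKM in ΔhepA and 1.18 to 2.26 in control libraries (1.42, adjusted p = 0.517). sidI, a siderophore gene, was at 74.62 to 88.39 FPKM in ΔhepA and 23.86 to 53.84 in control libraries (1.3, adjusted p = 0.337). In ΔlaeA they were FSL5 (log2 difference 3.22, limma adjusted p = 0.0587), fma-AT (-2.17, 0.0963) and vosA, a velvet gene (-1.72, 0.239).

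**Figure D4:**
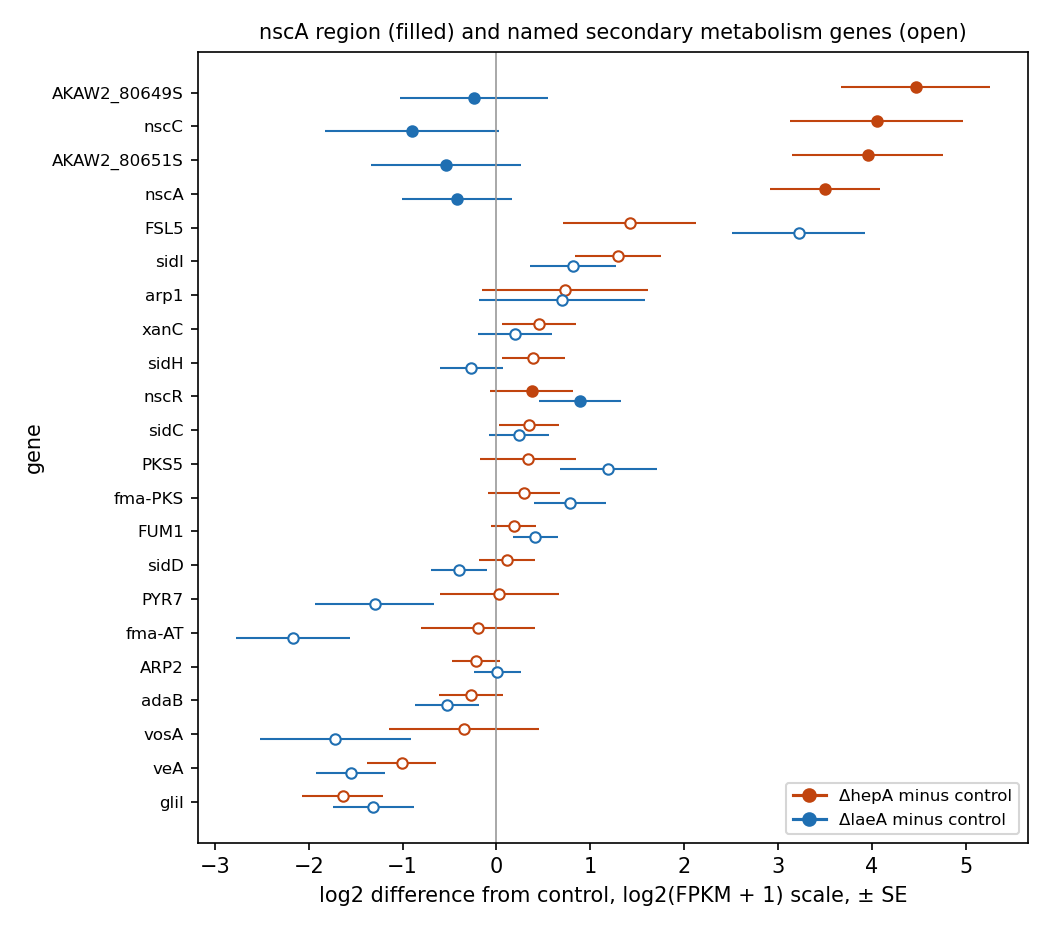
Log2 difference from the control with its SE (log2(FPKM + 1) scale, n = 3 per strain) for the 5 genes (filled) and the 17 tested genes with a secondary metabolism symbol (open), in ΔhepA and ΔlaeA, ordered by the ΔhepA value. In ΔhepA 4 of the 5 genes lie at 3.50 to 4.47 and the highest open point is FSL5 at 1.42. The filled genes were chosen on the ΔhepA comparison, so their place above the open ones was fixed in advance. Both strains are compared with the same 3 controls.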

How the data were processed

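Libraries were prepared with a stranded kit after poly(A) selection, per the labels' protocols. FPKM values were deposited by the authors in a single table, with a column for each library, and come from RSEM per the file headers and name. Per the submitters' processing notes the tools were RSEM 1.3.1, STAR 2.7.9a, featureCounts 2.0.1, cutadapt 3.7, Trimmomatic 0.39, Trim Galore 0.6.7 and FastQC 0.11.9, whose roles they do not state; for the genome build, nothing was given in the sources used. FPKM are scaled to each library's own total, so abundant transcripts lower all others. Symbols came from RefSeq's gene table (12941 of 12941 identifiers matched, 12936 with equal start and end, 2243 with a symbol). Relative depth was the most frequent ratio between libraries of FPKM between 0.1 and 1.2, as read totals were not used here. At most 1.8% of genes above 0 had equal values in 2 libraries.

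FPKM are not counts, so limma (version 3.58.1, R 4.3.3) was fitted to log2(FPKM + 1) of the 10009 genes that reached 1 FPKM in 3 or more libraries. The model had a mean per strain over the 9 libraries, leaving 6 residual degrees of freedom, and a mean trend in eBayes. Two-sided p-values were adjusted by Benjamini-Hochberg over every gene tested (threshold 0.05), and the fit was tested on simulated data. limma called 32 genes in ΔhepA (5 higher, 27 lower; 0 and 6 with median-ratio scaling) and 109 in ΔlaeA (17 higher, 92 lower; 48 and 94). Members, lists and tests were chosen with earlier results of these data known. Besides the 5 genes, the rule named the nearest flanking genes and those that differed by 2 or more on the log2 scale, the 8 genes most like nscA, and the 3 largest differences in the secondary metabolism list. AKAW2_80645A, AKAW2_80654S and the polyketide synthase and nsc symbols were picked with their values known. A search of protein sequences for other polyketide synthases was not run. The alternatives changed the pseudocount (0.1 or 5), the filter (none, or a mean of 5 FPKM or more), the scaling (median-ratio, quantile or TPM), the groups fitted (2 in place of all), the mean trend (none) and the blocking (by replicate number), or left out a library at a time or the 3 that lay apart together. Tables and plots were made in Python 3.11.15 with pandas 2.3.3, numpy 2.4.6, matplotlib 3.10.9 and scipy 1.17.1.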

Additional observations from a re-analysis of the deposited data

How the results depend on the processing

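In ΔhepA the log2 difference of nscA stayed between 3.11 and 4.03 in 16 of 17 alternatives and was 2.50 with a pseudocount of 5, which shrinks differences of low genes. AKAW2_80649S (3.97 to 5.22), nscC (3.47 to 4.82), AKAW2_80651S (3.38 to 4.72) and nscR (0.10 to 0.80) kept their direction in all 17. In ΔlaeA none of the 5 genes was called in any alternative that kept more than 1 ΔlaeA library. The alternative that kept only 1 is given by the size of its differences alone. nscC stayed below 0 (-1.93 to -0.077) and nscR above 0 (0.036 to 1.31) in all 17. The directions of nscA, AKAW2_80649S and AKAW2_80651S were not settled. With each library left out, the difference ran from -0.86 to 0.042 for nscA, from -0.97 to 0.51 for AKAW2_80649S and from -1.23 to 0.22 for AKAW2_80651S, and it was above 0 for all 3 without control replicate 3. With quantile normalization AKAW2_80649S was at 0.056; the cause was not tested.

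The count of genes called in ΔhepA, 32, was 11 with a pseudocount of 0.1, 14 with no filter, 6 with median-ratio scaling, 13 with quantile normalization, 14 with a fit on 2 groups, 7 without the 3 libraries that lay apart, and 5 to 55 with each library left out. In ΔlaeA 109 became 29 with no filter, 211 with TPM, 49 with a fit on 2 groups, 9 without the 3 libraries, and 21 (without ΔlaeA replicate 2) to 1601 (without ΔlaeA replicate 1). Same-numbered libraries did not deviate together with the control (correlations of -0.12, 0.17 and 0.08 in ΔhepA and -0.06, 0.08 and -0.18 in ΔlaeA). These values gave no sign of pairing with the controls. Same-numbered ΔhepA and ΔlaeA libraries were not compared with each other, and a shared batch was not tested. With the replicate number as a block, 6 genes were called in ΔhepA and 174 in ΔlaeA. Low values are least precise in ΔlaeA replicates 2 and 3, the shallowest libraries.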

Other observations

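Genes named after other aromatic polyketide clusters, picked after the symbols had been seen, were mostly near 0. encA, named after the endocrocin polyketide synthase of Aspergillus fumigatus and, at 5406 bases, close to nscA in annotated length, was at 0.04 to 0.16 FPKM in the controls, 0 to 0.4 in ΔhepA and 0 to 0.23 in ΔlaeA. tpcM and tpcJ, named after the trypacidin cluster, were at or below 0.91 FPKM in every library. tpcG, of the same cluster, was at 0 to 1.56 FPKM in the controls, 0.35 to 2.04 in ΔhepA and 0 to 1.11 in ΔlaeA (log2 differences 0.34 and 0.011, limma adjusted p = 0.845 and 0.993). encD stood at 27.3, 2.02 and 4.12 FPKM in the controls, 0.47 to 1.35 in ΔhepA and 0.25 to 1.84 in ΔlaeA (log2 differences -1.94 and -2, limma adjusted p = 0.351 and 0.151), and control replicate 1 alone set most of its control mean.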
